A study of Caenorhabditis elegans with 5 samples.

Results

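The genes described here are the 6 cathepsin B-like cysteine proteases cpr-1 to cpr-6 of the nematode Caenorhabditis elegans, out of 45461 gene identifiers in the deposited tables. They were chosen by name. The identifiers C52E4.1 (cpr-1), F36D3.9 (cpr-2), T10H4.12 (cpr-3), W07B8.5 (cpr-5) and C25B8.3 (cpr-6) were found as given, which accounts for 5 members. For cpr-4 the identifier given was F44C3.2, which no table lists, and the RefSeq annotation of assembly WBcel235 pairs the name cpr-4 with F44C4.3, so that entry was used for the remaining 1 member. In that annotation 5 of the genes are on chromosome V and cpr-6 is on chromosome X.

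Cathepsin B-like enzymes are papain-type cysteine proteases. They are made as inactive precursors that lose a propeptide, and they cut protein in lysosomes or, when secreted, outside the cell. In worms, proteases of this kind act in the intestine, where they help to break down the bacterial food, and cpr-1 was first described as a gut-specific gene. Cystatins are small proteins that block these enzymes, and the GATA factor ELT-2 drives many genes of the intestine.

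RNA came from whole hermaphrodites kept at 20 °C, in 5 libraries with 1 library per group, each a pool of ca. 3000 animals from 2 independent experiments. The fasted group had received gld-1 RNAi and spent 48 h from day 2 of adulthood on plates without bacteria, and the fed group had received gld-1 RNAi and spent the same 48 h on L4440 bacteria; both carry the label of day 4. The gld-1 RNAi group was collected on day 3. The control group of day 3 and the young adults of day 1 ate L4440 bacteria, which hold the empty RNAi vector. In all 3 gld-1 RNAi groups the treatment was by feeding bacteria against gld-1, whose loss lets germ cells return to mitosis and form a tumour; the labels disagree on whether this food was given from the L1 stage or, for the day 3 group, only after the first day of adulthood.

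Reads in genes numbered 13803289 (fasted), 27469984 (fed), 27598482 (gld-1 RNAi of day 3), 27547808 (control) and 15426039 (young adult). Ribosomal RNA genes took 25.4% to 27.8% of the reads in 4 libraries and 3.51% in the young adult library, which stands apart from the others and enters both comparisons with young adults. The RNAi target gld-1 stood at 1592, 3061 and 1994 normalized reads in the fasted, fed and day 3 gld-1 RNAi libraries, against 20340 in the control and 17593 in the young adult library. With no second library in any group, no difference below has a replicate check, and the 95% intervals (exact Clopper-Pearson) cover counting error only. In whole animals, fewer cells of a type and less RNA per cell cannot be told apart.

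In all libraries but 1 the family was carried by the same 3 genes. Levels are given first on 1 scale over the 5 libraries, as reads divided by a size factor, and levels between genes are compared per kb of exon. The summed level of the 6 genes was 8640 normalized reads per kb in the fasted, 17436 in the fed, 12747 in the gld-1 RNAi, 19604 in the control and 28556 in the young adult library. Their reads made up 0.0616%, 0.122%, 0.0951%, 0.133% and 0.206% of the reads outside ribosomal RNA in the same order. The fasted library was thus the lowest and the young adult library the highest of the 5 on both measures. In the control library cpr-6 made up 43.0%, cpr-1 30.02% and cpr-4 21.0% of the summed level per kb. In the young adult library cpr-5 led with 42.0%, followed by cpr-4 with 23.6% and cpr-6 with 23.3%, which did not differ beyond counting error. In the fasted library cpr-4 led with 39.0%, ahead of cpr-6 with 27.0% and cpr-1 with 21.4%.

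**Figure D1:**
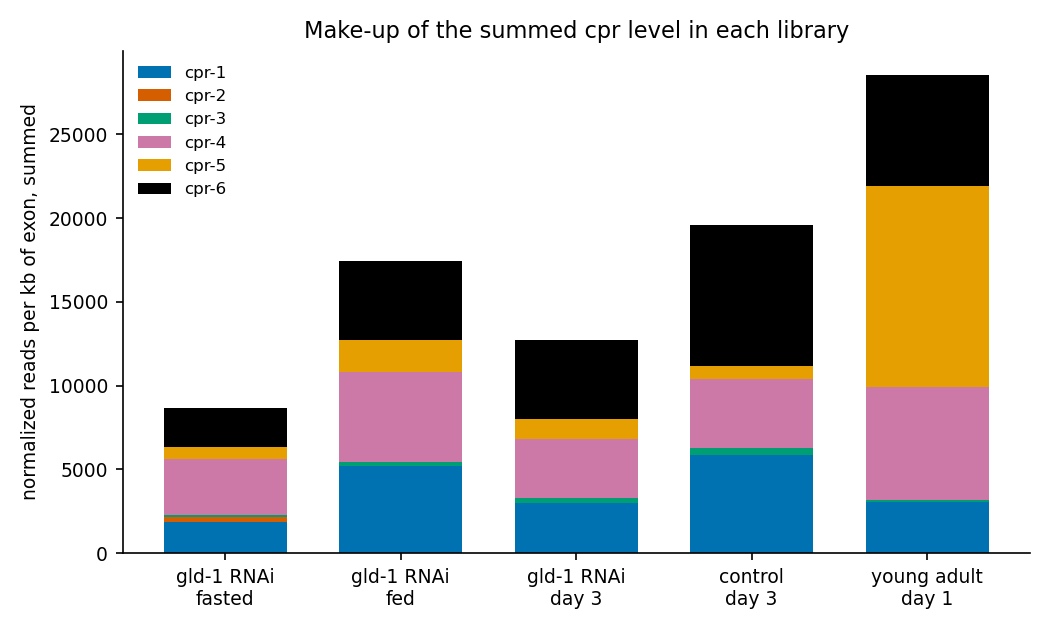
Summed level of the 6 cpr genes in each library (vertical axis, normalized reads per kb of exon), with 1 coloured segment per gene and 1 library per bar. The bars stand at 8640 (fasted), 17436 (fed), 12747 (gld-1 RNAi of day 3), 19604 (control) and 28556 (young adult), and the cpr-5 segment makes up 42.0% of the young adult bar.

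The gut protease cpr-1 stood at 1996 normalized reads in the fasted, 5585 in the fed, 3250.3 in the gld-1 RNAi, 6345 in the control and 3290.3 in the young adult library. The control and fed libraries were high, the fasted library was lowest, and the gld-1 RNAi and young adult libraries did not differ beyond counting error. The highest level was 3.18 times the lowest.

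For cpr-6, the member on chromosome X, the levels were 2941 normalized reads in the fasted, 5948 in the fed, 6007.5 in the gld-1 RNAi, 10626 in the control and 8387 in the young adult library. The fed and gld-1 RNAi libraries did not differ beyond counting error, and all other neighbours in the order did. The control library was 3.61 times as high as the fasted one.

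The secreted cathepsin B cpr-4, known in worms as a factor that animals release after irradiation, spread least. Its level was 3807 normalized reads in the fasted, 6063 in the fed, 3948 in the gld-1 RNAi, 4651 in the control and 7611.5 in the young adult library. The young adult library was 1.999 times as high as the fasted library, which did not differ from the gld-1 RNAi library beyond counting error. In the annotation a piRNA gene, 21ur-14330, lies within cpr-4 on the opposite strand and was given 86, 315, 188, 216 and 495 reads in the same order of libraries, and since strand is not known here, reads of both genes cannot be told apart. No annotated gene of the tables overlaps the other 5 members.

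By contrast cpr-5 varied widely, at 799 normalized reads in the fasted, 2329.5 in the fed, 1413.5 in the gld-1 RNAi, 930.4 in the control and 14438 in the young adult library. The young adult library was 18.1 times as high as the fasted one, and every pair of neighbours in the order differed beyond counting error.

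Much lower was cpr-3, at 129 normalized reads in the fasted, 295 in the fed, 393 in the gld-1 RNAi, 538 in the control and 170.3 in the young adult library. The control was 4.16 times as high as the fasted library, and the young adult and fasted libraries did not differ beyond counting error.

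The pattern of cpr-2 was unlike the others. It had 216 reads in the fasted, 20 in the fed and 10 in the gld-1 RNAi library, and 0 in both the control and the young adult library. On the common scale this is 345 normalized reads in the fasted, 16.6 in the fed and 7.67 in the gld-1 RNAi library. With 0 reads, the 95% exact binomial interval of its share of reads outside ribosomal RNA still reaches 1.85e-05% in the control library. In the young adult library it reaches 2.48e-05%. The share measured in the fasted library was 0.00212% (interval 0.00185% to 0.00243%). In the fasted library cpr-2 stood at 324 normalized reads per kb, above cpr-3 at 94.6, while in each of the other libraries it was the lowest of the 6.

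**Figure D2:**
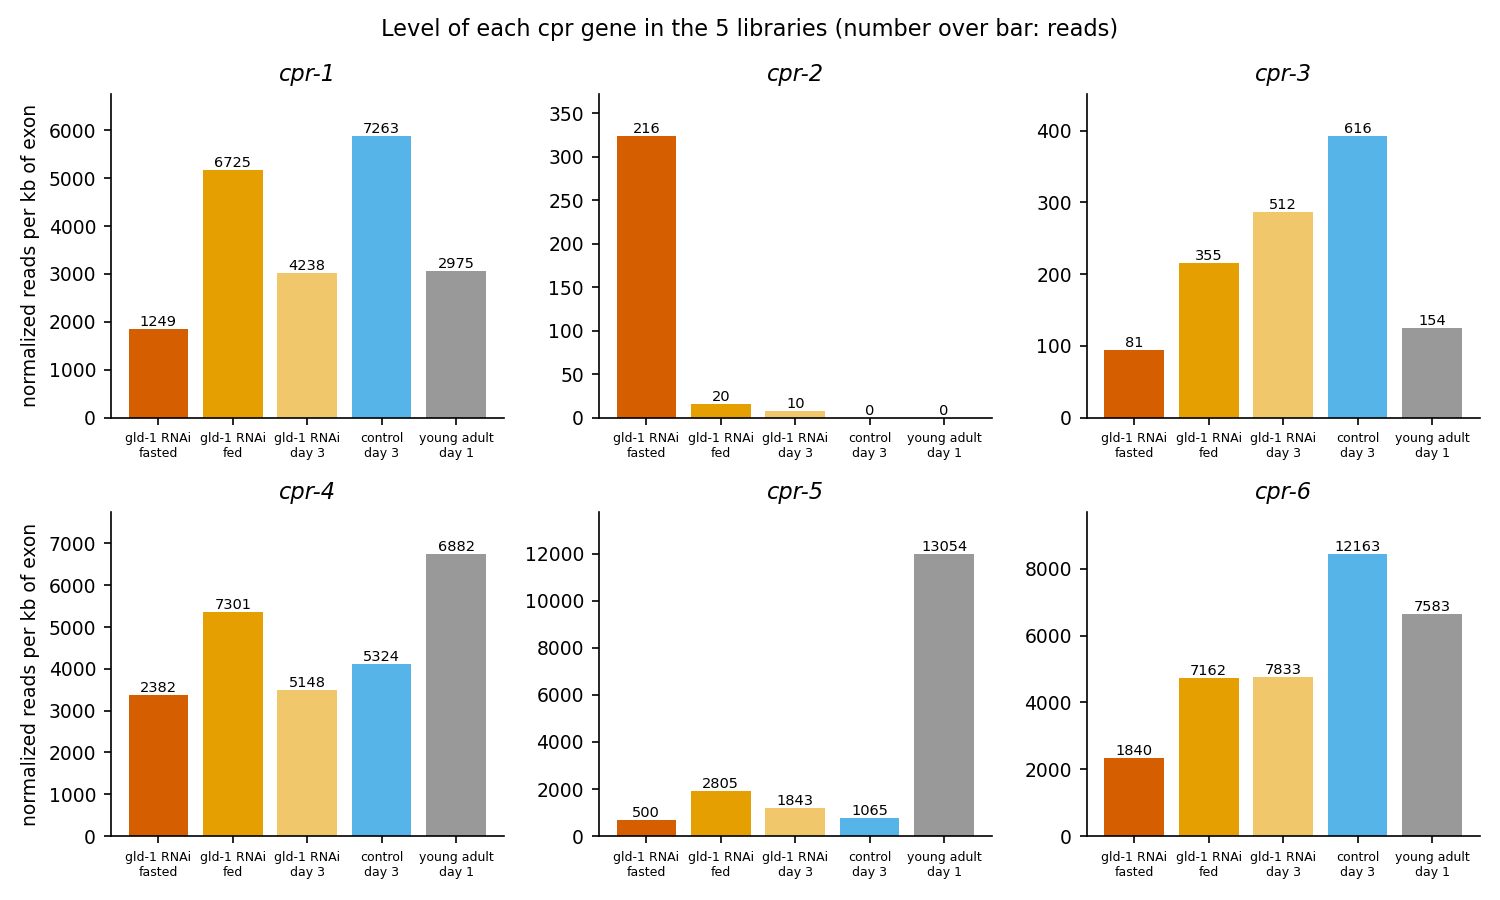
Level of each cpr gene (vertical axis, normalized reads per kb of exon, linear and set per panel) in the 5 libraries, 1 bar per library, with the recovered reads over the bar. cpr-2 has 216 reads in the fasted library and 0 in the control and young adult libraries, cpr-5 is highest in the young adult library, and the 5 genes other than cpr-2 have their lowest bar in the fasted library.

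Fasted against fed gld-1 RNAi animals, both of day 4, ask what absence of food does to these genes in animals with a tumour. Of the 6 genes 5 had a log2 fold below 0 in the fasted library and cpr-2 had one far above 0. Folds are log2 of the first over the second library on the authors' normalized values plus 1, and a gene counts as measured with a mean of 50 or more normalized reads over both libraries. At least 2-fold lower were cpr-1, cpr-3 and cpr-5, that is 3 of 6, where 3.31% of the 8991 genes measured were at least 2-fold lower. The single higher member was cpr-2, where 1.27% of the measured genes were at least 2-fold higher, and cpr-2 reached the minimum mean only through its level in the fasted library.

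The fold of cpr-2 was the highest of all measured genes in this comparison. It had 302 normalized reads in the fasted and 14.3 in the fed library (log2 fold 4.31, interval 3.74 to 5.14). The authors' deposited table lists 1.2e-08 as its adjusted p, in a comparison where 0.115% of genes were below 0.1 and higher and 0.517% below 0.1 and lower in the fasted library. That value, like all adjusted p-values below, comes from 1 library per condition and does not measure variation between pools.

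Among the lower members, cpr-5 had 699.9 normalized reads in the fasted and 2004 in the fed library (log2 fold -1.52, interval -1.66 to -1.38). cpr-1 had 1748 in the fasted and 4804 in the fed library (log2 fold -1.46, interval -1.55 to -1.37). The authors' deposited table gives adjusted p-values of 0.00445 for cpr-5 and 0.000639 for cpr-1. Few genes lay below them, since 1.51% had a lower fold than cpr-5 and 1.68% a lower one than cpr-1.

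A smaller count stood behind cpr-3, with 113 normalized reads in the fasted and 254 in the fed library (log2 fold -1.15). Its interval, -1.53 to -0.81, reached across 2-fold, and its adjusted p in the authors' deposited table was not below 0.1. For cpr-6 the values were 2576 in the fasted and 5117 in the fed library, a log2 fold of -0.99 (interval -1.07 to -0.92), just short of 2-fold. With size factors over 5 libraries the log2 fold was -1.02, which made cpr-6 a further gene at least 2-fold lower (4 of 6), and the authors' deposited table lists 0.126 as its adjusted p. The fold of cpr-4 was smaller, -0.65 (interval -0.71 to -0.58), from 3334 normalized reads in the fasted and 5216 in the fed library.

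Of 10 measured intestinal markers 7 had a log2 fold below 0 and 3 above 0 in the fasted library, with 4 at least 2-fold lower, 1 at least 2-fold higher and a median log2 fold of -0.83, against 0.04 over all measured genes. Among these, act-5, an actin of the microvilli, had a log2 fold of -1.59 and the gut esterase ges-1 one of -1.63. The higher one was pept-1, a peptide transporter gene of the gut (log2 fold 1.21), named after its values were seen. The summed level of the 12 markers was 2583 normalized reads in the fasted and 3528 in the fed library, with no marker at 0 in either. elt-2 stood at 20 reads in the fasted and 72 in the fed library, under the minimum mean. Oocyte markers went the other way, with 3 of 6 at least 2-fold higher. The part of either marker list in the cpr differences was not tested.

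The fasted library was also set against that of gld-1 RNAi animals still on RNAi food, which differ from it in age (day 4 against day 3) as well as in food. It shares the fasted library with the comparison above, so they are not independent. At least 2-fold lower were 2 of 6 members, cpr-3 and cpr-6, where 3.45% of 9100 measured genes were, and at least 2-fold higher was cpr-2, where 0.571% of the measured genes were. cpr-2 had 309 normalized reads in the fasted and 6.98 in the gld-1 RNAi library (log2 fold 5.28, interval 4.56 to 6.55), again the highest of all measured genes. The authors' deposited table lists 3.87e-12 as its adjusted p, where 0.0857% of genes were below 0.1 and higher and 0.752% below 0.1 and lower. As before, it passed the minimum mean only through the fasted library.

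In the same comparison cpr-3 had 116 normalized reads in the fasted and 357 in the gld-1 RNAi library (log2 fold -1.61, interval -1.98 to -1.28). Its adjusted p in the authors' deposited table was not below 0.1. cpr-6 had 2636 in the fasted and 5468 in the gld-1 RNAi library (log2 fold -1.05, interval -1.13 to -0.98). Its interval reaches across 2-fold, the call was lost with equal upper quartiles (log2 fold -0.96), and the authors' deposited table lists 0.0103 as its adjusted p. cpr-5 and cpr-1 were lower by less than 2-fold, with log2 folds of -0.84 and -0.73, and neither had an adjusted p below 0.1 there. cpr-4 had nearly equal levels (log2 fold -0.07, interval -0.15 to -0.00435), and this sign turned under scaling to equal upper quartiles. Intestinal markers had a median log2 fold of -0.70, with 4 of 10 measured at least 2-fold lower, and their part was not tested.

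Fed gld-1 RNAi animals against gld-1 RNAi animals of day 3 differ both in food (L4440 against gld-1 RNAi bacteria) and in age (day 4 against day 3), which cannot be told apart. The fed library also enters the comparison of fasted with fed animals, so these comparisons are not independent. None of the 5 measured members reached 2-fold in either direction (of 9895 measured genes 0.212% did so upward and 0.243% downward, and the split of 21 genes higher and 24 lower became 13 and 45 with equal totals). Even so, 3 members lay near the top of the distribution. cpr-1 had 6946 normalized reads in the fed and 4103 in the gld-1 RNAi library (log2 fold 0.76, interval 0.70 to 0.82), and 0.475% of the measured genes had a higher one. cpr-5 had 2897 in the fed and 1784 in the gld-1 RNAi library (log2 fold 0.70, interval 0.61 to 0.78), with 0.667% of genes above it. cpr-4 had 7541 in the fed and 4984 in the gld-1 RNAi library (log2 fold 0.60, interval 0.55 to 0.65), with 1.32% of genes above it.

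The authors' deposited table gives these 3 genes adjusted p-values of 0.000138 (cpr-1), 0.00373 (cpr-5) and 0.0147 (cpr-4). Over all genes with an adjusted p in that table, 0.133% were below 0.1 and higher and 0.165% below 0.1 and lower in the fed library. cpr-6 did not differ beyond counting error (log2 fold -0.04, interval -0.08 to 0.01), and cpr-3 was lower, with a log2 fold of -0.43 (interval -0.63 to -0.24). For cpr-2, 20 reads stood against 10, a ratio of 2.13 with an interval of 0.953 to 5.104 that includes no difference. Intestinal markers had a median log2 fold of -0.17 here, with 0 of 11 measured at 2-fold and 9 of 11 below 0. Oocyte markers had a median of -0.54, and their part in the higher cpr levels was not tested.

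**Figure D3:**
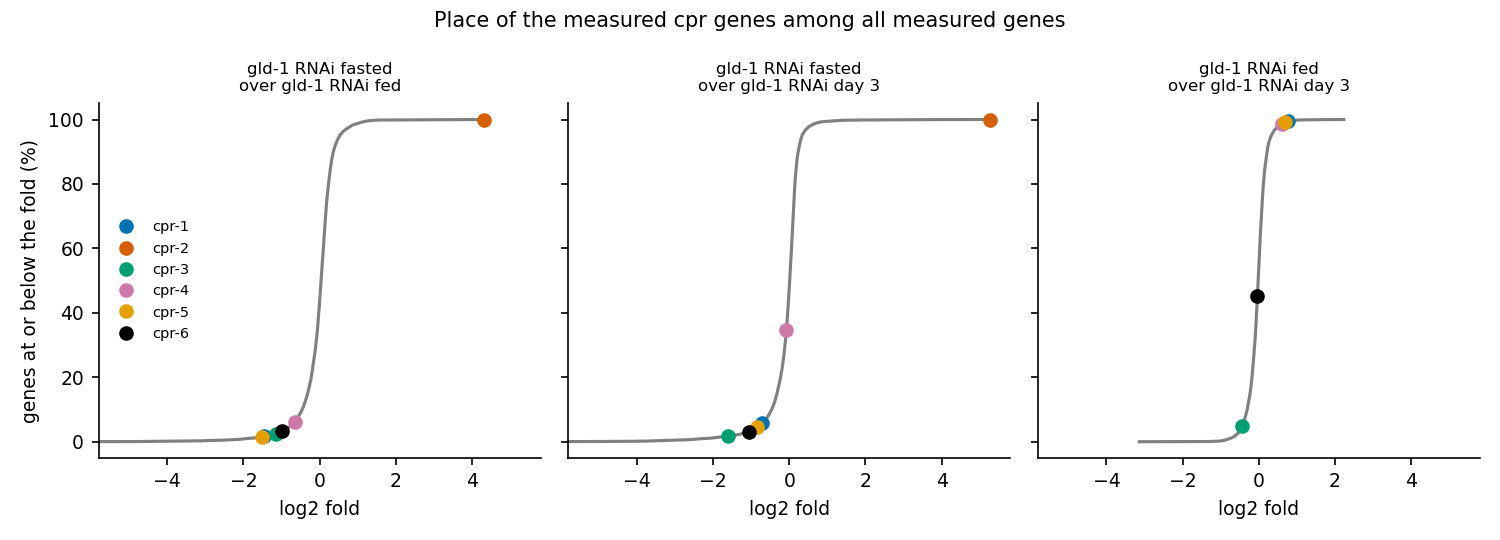
Share of measured genes at or below a given log2 fold (grey curve, vertical axis in percent, horizontal axis log2 fold) in the 3 comparisons among gld-1 RNAi libraries, with each measured cpr gene as a coloured point on the curve. cpr-2 sits at the upper end in both fasted comparisons, at log2 folds of 4.31 and 5.28, and cpr-1, cpr-4 and cpr-5 sit near the upper end when fed animals are set against day 3 animals.

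The gld-1 RNAi and control libraries of day 3 address what the germline tumour changes at 1 age. None of the 5 measured members was 2-fold apart (cpr-2 was under the minimum mean), where 8.97% of 9791 measured genes were higher and 7.99% lower by that much. Over all genes this is 878 higher and 782 lower, a split that equal totals turned to 1082 and 593. cpr-1 had 4045 normalized reads in the gld-1 RNAi and 7609.8 in the control library (log2 fold -0.91, interval -0.97 to -0.86). cpr-6 had 7476 in the gld-1 RNAi and 12744 in the control library, a log2 fold of -0.77 (interval -0.81 to -0.73).

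The remaining measured members differed less or the other way. cpr-3 (log2 fold -0.40, interval -0.57 to -0.23) and cpr-4 (log2 fold -0.18, interval -0.24 to -0.13) stood slightly below the control. cpr-5 was higher, at 1759 normalized reads in the gld-1 RNAi and 1116 in the control library (log2 fold 0.66, interval 0.55 to 0.77). For cpr-2 the 10 reads of the gld-1 RNAi library stand against 0 in the control, at least 3.04-fold higher against a floor of 3 reads per library. This bound takes the 10 reads as exact, and the counting interval of the ratio starts at 2.04-fold. The authors' deposited table gives an adjusted p of 1 for all 6, in a comparison where 0.147% of genes were below 0.1 and higher and 0.0758% below 0.1 and lower. All 12 intestinal markers had a log2 fold below 0 here (median -0.87, 4 of 12 at least 2-fold lower), and their summed level was 3806 normalized reads in the gld-1 RNAi and 6940 in the control library. All 6 oocyte markers were at least 2-fold lower (median -1.84). The part of these markers in the lower cpr-1 and cpr-6 levels was not tested.

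Day 3 gld-1 RNAi animals against young adults differ in age and RNAi at once, and their libraries differ in ribosomal RNA (25.4% against 3.51% of reads). Of 5 measured members, cpr-3 was at least 2-fold higher and cpr-5 at least 2-fold lower, where 17.4% of 10795 measured genes were higher and 23.8% lower by that much. These are 1876 and 2570 genes, a split that became 886 and 3473 with equal totals. With equal totals without ribosomal RNA it was 1683 and 2681. cpr-5 had 1596 normalized reads in the gld-1 RNAi and 15073 in the young adult library (log2 fold -3.24, interval -3.31 to -3.17). The authors' deposited table lists 0.286 as its adjusted p, where 0.0511% of genes were below 0.1 and higher and 0.808% below 0.1 and lower. cpr-3 had 443 in the gld-1 RNAi and 178 in the young adult library (log2 fold 1.31, interval 1.06 to 1.59). This call was lost when the libraries were scaled to equal totals (log2 fold 0.89). It was kept with equal totals without ribosomal RNA (log2 fold 1.26). The adjusted p of cpr-3 in the authors' deposited table was not below 0.1. cpr-4 (-0.83), cpr-6 (-0.37) and cpr-1 (0.10) had smaller log2 folds, and that of cpr-1 turned below 0 under 2 other scalings. cpr-2, not measured here either, had 10 reads against 0, at least 2.5-fold higher against the same floor, with a counting interval that starts at 1.68-fold. Of the 12 intestinal markers 10 were at least 2-fold lower (median -2.02), as were 6 of 6 muscle and 4 of 4 pharynx markers, and their part in the cpr-5 difference was not tested.

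The day 3 control and the young adults, both on L4440 bacteria, share no deposited table and were compared on the scale over 5 libraries. The same young adult library enters the comparison above, so they are not independent. cpr-5 was lower and cpr-3 higher in the control here as well, where 25.8% of 10480 measured genes were at least 2-fold lower and 16.1% higher. The split of 1690 genes higher and 2700 lower became 630 and 3764 with equal totals. With equal totals without ribosomal RNA it was 1436 and 2838. cpr-5 stood at 930.4 normalized reads in control animals and 14438 in young adults (log2 fold -3.95, interval -4.05 to -3.87). cpr-3 had 538 in the control and 170.3 in the young adult library, a log2 fold of 1.65 (interval 1.40 to 1.92). cpr-1 had a log2 fold of 0.95 (interval 0.89 to 1.01). cpr-6 had one of 0.34, which turned to -0.15 with equal totals, and cpr-4 one of -0.71. The intestinal markers summed to 6940 normalized reads in control animals and 39924 in young adults, and 7 of 12 were at least 2-fold lower, such as the gut actin act-5 (log2 fold -3.09). Markers of muscle, pharynx and hypodermis were lower too (6 of 6, 4 of 4 and 4 of 6 at least 2-fold lower), and their part in the cpr-5 difference was not tested.

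**Figure D4:**
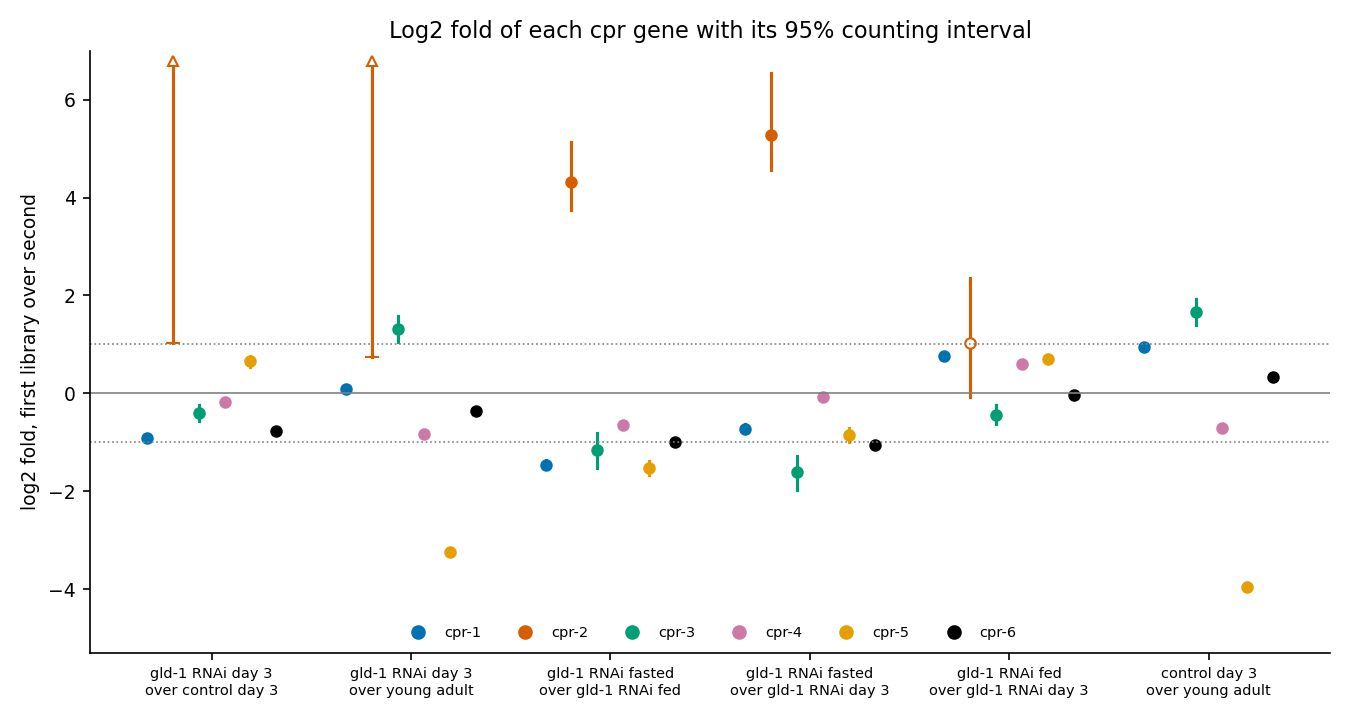
Log2 fold (vertical axis) of each cpr gene, 1 colour per gene, in the 5 deposited comparisons and in control over young adult on the 5-library scale, with the 95% counting interval as a vertical line and 2-fold as dotted lines. Open symbols mark cpr-2 under the minimum mean of 50, and triangles mark intervals with no upper end because the second library had 0 reads. cpr-2 lies at 4.31 and 5.28 in the fasted comparisons, and cpr-5 at -3.24 and -3.95 against young adults.

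Proteases of neighbouring kinds and their inhibitors were listed for comparison. cpl-1, the worm cathepsin L, which acts in yolk processing and embryogenesis, had a log2 fold of -0.50 (interval -0.57 to -0.44) in fasted over fed animals. The cathepsin Z genes stood at 0.02 (cpz-1) and 0.85 (cpz-2). Outside the 6 genes, 2 further genes with a cpr name are in the tables. cpr-9 (F57F5.1) had 304 normalized reads in the fasted and 920.2 in the fed library (log2 fold -1.60). cpr-8 (W07B8.1) had 18.2 in the fasted and 103 in the fed library (log2 fold -2.44, interval -3.44 to -1.68). The fold of cpr-8 rests on 13 reads against 144, and it passed the minimum mean only through the fed library. Set against young adults, gld-1 RNAi animals of day 3 had less of both, cpr-9 at 1204 against 14041 normalized reads (log2 fold -3.54) and cpr-8 at 85.7 against 532 (log2 fold -2.62). Thus cpr-5, cpr-8 and cpr-9 each had log2 folds below -2 in that comparison and below -1 in fasted over fed animals. Over all measured genes, 23.8% and 3.31% were at least 2-fold lower in these comparisons. Of the 8 measured genes on the list of other cathepsins, 5 and 2 were, and cpr-8 and cpr-9 are those 2. In gld-1 RNAi over control they parted, with log2 folds of 0.66 (cpr-5), -0.43 (cpr-8) and -1.64 (cpr-9).

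The cystatin genes cpi-1 and cpi-2, inhibitors of such proteases, had log2 folds of -0.30 and -0.16 in fasted over fed animals, and 0 of 2 reached 2-fold. Set against young adults, gld-1 RNAi animals of day 3 had more of both, cpi-1 at 2588.5 against 718 normalized reads (log2 fold 1.85) and cpi-2 at 2947 against 1607 (log2 fold 0.87). Of the aspartyl proteases asp-1 to asp-6, only asp-4, a cathepsin D-like enzyme, was at least 2-fold lower in fasted over fed animals (log2 fold -1.51), and the intestinal asp-1 had a log2 fold of 0.99. The list of 16 other lysosomal genes shares vha-6 (log2 fold 0.76) with the intestinal markers. It had a median of 0.20 over 12 measured members in that comparison, with 1 at least 2-fold higher and 0 lower, where 1.27% and 3.31% of all measured genes were. The higher one was lipl-1, a lysosomal lipase gene (log2 fold 2.64), which was named after its values were seen. With 153 normalized reads in the fasted and 23.6 in the fed library, lipl-1 reached the minimum mean only through the fasted library. hlh-30, which encodes the TFEB-like regulator of lysosomal genes, had a log2 fold of 0.30 (interval 0.17 to 0.43).

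**Figure D5:**
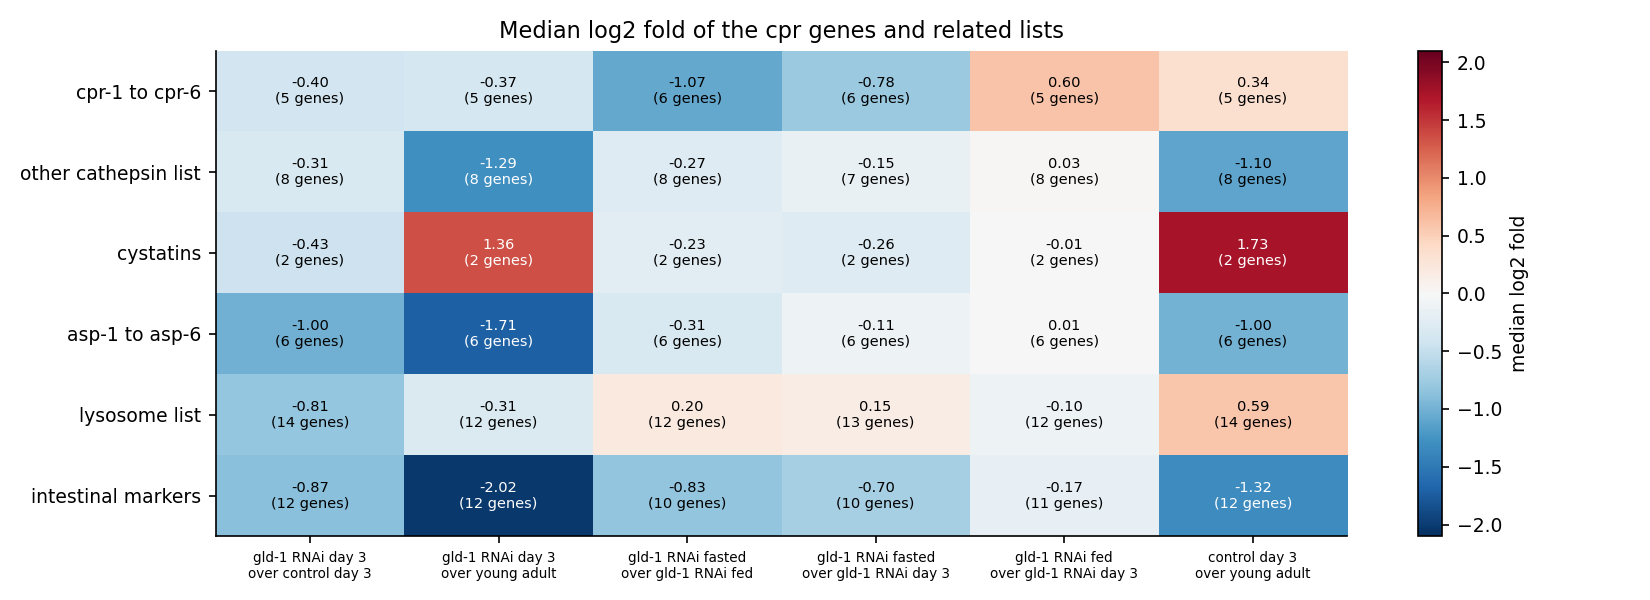
Median log2 fold (colour and number in each cell) of the 6 cpr genes and 5 lists of related genes or markers, with the number of measured genes in parentheses, by comparison. In fasted over fed animals the cpr genes, cpr-2 among them, have a median of -1.07, the intestinal markers -0.83 and the lysosome list 0.20. The lysosome list and the intestinal markers share vha-6.

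The genes most like each member were found by the distance between values of log2 of the level plus 1, centred over the 5 libraries. Only genes with a mean level of at least 50 were used. Closest to cpr-6 was vit-2, a yolk protein gene of the intestine, at a distance of 0.26, followed by kola-4 and kola-2 at 0.30 each. In all, 37 genes lay within 0.5 of cpr-6. vit-2 stood at 71360 normalized reads in the fasted, 157529 in the fed, 146482 in the gld-1 RNAi, 219541 in the control and 202953 in the young adult library. For cpr-2 no gene lay nearer than 2.36 (Y46H3A.5), with thn-1, which encodes a thaumatin-like protein, at 2.76 and ilys-2, a gene for an invertebrate-type lysozyme, at 3.21. With 0 reads of cpr-2 in the control and young adult libraries, all its distances depend on the 1 added to each level. It also reached the mean level of 50 only through the fasted library. thn-1 stood at 2063.5 normalized reads in the fasted, 158 in the fed, 74.4 in the gld-1 RNAi, 67.3 in the control and 11.1 in the young adult library.

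For cpr-4 the nearest were gplb-1 (0.25), W05H9.3 (0.27) and F32B5.6 (0.29), and 140 genes lay within 0.5 of it. cpr-3 was nearest to ttr-23 (0.45), Y47H10A.5 (0.49) and srlf-30 (0.59), cpr-1 to C04H5.7 (0.45), F58D5.2 (0.49) and Y69A2AL.2 (0.58), and cpr-5 to Y43C5B.3 (0.41), F36H9.4 (0.55) and ttr-31 (0.62). Within the family cpr-1 and cpr-6 were the nearest pair (0.92) and cpr-2 and cpr-5 the farthest (9.20). These distances rest on 5 libraries and 1 shared scaling, and they describe likeness only.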

How the data were processed

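RNA of 5 pooled libraries was measured, 1 per group. The submitters' processing notes name TopHat, HTSeq and DESeq, without versions. No source used here names the genome build, and coordinates are therefore left out. Each of the 5 tables that the authors deposited holds normalized signal for a pair of libraries (reads per gene over a size factor of that pair) and adjusted p-values, per the file headers. Columns were assigned from the names of each table in DESeq's column order. All values (100%) lay within 0.1 of a whole read after rescaling, and 0 genes differed where a library recurs. The day 3 gld-1 RNAi library recurs in 4 tables. A count model needs replicates, and with 1 library per group none was run.

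Folds used a pseudocount of 1 and a minimum mean of 50 normalized reads, and intervals were exact (95%). A floor of 3 reads entered only the lower bounds given for cpr-2 against 0 reads. The scale over all 5 libraries used median-of-ratios size factors; exon lengths and names came from Ensembl release 115 and RefSeq (44936 of 45461 identifiers matched). Folds and intervals were tested on simulated reads that held counting error only and left out variation between pools. Members, 14 lists (93 entries, 92 matched) and rules were chosen with earlier results of these data known. Named were all 6 members in each comparison, the 3 genes nearest to each in pattern and, where a list is described, a fixed set of cathepsin, cystatin and gut genes and up to 3 of its genes by size of fold. cpr-8 lies under the mean of 100 set for naming in fasted over fed animals and was named after its values were seen. A planned search for related proteins was not run, and no sequences were used here. Python 3.11.15, NumPy 2.4.6, pandas 2.3.3, SciPy 1.17.1 and matplotlib 3.10.9 were used.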

Additional observations from a re-analysis of the deposited data

How the results depend on the processing

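Of 132 alternative counts of members, 113 stayed within 1.5 times the count reported. These include counts of 0 that stayed 0, which stricter thresholds could not change. With a threshold of 1.5-fold, 1 member was higher and 2 lower in gld-1 RNAi over control, 2 were lower in gld-1 RNAi over young adult, 5 were lower in fasted over fed, 4 were lower in fasted over gld-1 RNAi, 3 were higher in fed over gld-1 RNAi, and 2 were higher and 2 lower in control over young adult. At 3-fold, 0 were higher in gld-1 RNAi over young adult, 0 were lower in fasted over fed and 1 was lower in fasted over gld-1 RNAi. Scaling to equal totals gave 0 higher and 2 lower members in gld-1 RNAi over young adult and 2 lower in control over young adult. Equal totals without ribosomal RNA kept 1 higher and 1 lower in gld-1 RNAi over young adult. Equal upper quartiles gave 1 lower in fasted over gld-1 RNAi, with cpr-6 lost, as did asking for the whole counting interval beyond 2-fold. A minimum mean of 200 left 0 higher in both fasted comparisons, because cpr-2 is then not measured, and one of 10 gave 1 higher in fed over gld-1 RNAi. Where no construction is named, the cause was not tested. Equal totals moved the median log2 fold of all genes from 0.12 to -0.33 in gld-1 RNAi over young adult. With equal totals without ribosomal RNA that median was 0.06. The sign of a fold turned in 5 of 193 cases, all of members less than 2-fold apart. The alternatives for control over young adult were added after seeing the data. No paired analysis was possible because each group has 1 library, and for the same reason no library could be left out. cpr-2 and cpr-3 rest on few reads, so their folds carry the widest intervals.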
